A study of Mus musculus with 12 samples.

Results

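Alpha- and beta-tubulin, the proteins that pair to form microtubules, were followed through 10 genes in mouse liver: Tuba1a, Tuba1b, Tuba1c, Tuba4a and Tuba8 for alpha, and Tubb2a, Tubb2b, Tubb4b, Tubb5 and Tubb6 for beta. The rows of the deposited transcript table that carry these symbols were summed per gene and liver, and they gave 10 of the 24296 gene symbols in the table. Values are FPKM, fragments per kilobase of transcript scaled by library size, so levels of different genes are per length. All 10 tubulin genes had a mean of at least 0.5 FPKM over the livers, as had 13158 symbols in all, and every member was tested. The study treated fibrosis that carbon tetrachloride (CCl4), a solvent toxic to hepatocytes, had produced in the liver of male C57/BL6N mice. Total RNA of 12 livers was sequenced, 3 in each of 4 groups. Control mice are labelled WT, model mice received CCl4 alone, and the silibinin and phloridzin groups received CCl4 together with the drug. A dilute solution of CCl4 in olive oil was given into the peritoneum at 5 mL/kg with 2 injections in each of 8 weeks. The drugs were added from week 5. Silibinin is a flavonolignan from milk thistle, and phloridzin is a plant glucoside that blocks sodium-coupled glucose transport. By the study's results section the sequenced phloridzin livers belong to its high-dose group. The age of the mice and any injection of the control mice are not given in the sources used here. Library sizes were 105.2 to 109.6 M fragments in the control group, 83.7 to 101.5 M in the model group, 106.7 to 110.9 M with silibinin and 98.4 to 104.7 M with phloridzin. Alb, the albumin gene that marks hepatocytes, was between 10970.5 and 29357 FPKM in the 12 livers, as the tissue label requires.

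Microtubules grow by adding dimers of alpha- and beta-tubulin, and the genes of each family encode isotypes that differ mostly at the carboxyl end of the protein. In hepatocytes microtubules carry secretory vesicles and lipoproteins to the cell surface, and in dividing cells they form the spindle. Cells also match tubulin RNA to the pool of free dimers, since the nascent amino terminus of a tubulin is recognised by the protein encoded by Ttc5, which sends the translated RNA to decay.

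The 10 genes lie at 7 places in the genome by GENCODE M21 on build GRCm38. Tuba1b (98931425 to 98934565, minus strand), Tuba1a (98949837 to 98953703, minus strand) and Tuba1c (99029891 to 99038110, plus strand) are neighbours on chromosome 15, with 15.3 kb between Tuba1b and Tuba1a and 76.2 kb between Tuba1a and Tuba1c. Tubb2a (34074274 to 34078007) and Tubb2b (34126748 to 34130466) are 48.7 kb apart on the minus strand of chromosome 13. Tuba4a, Tuba8, Tubb4b, Tubb5 and Tubb6 stand alone on chromosomes 1, 6, 2, 17 and 18. Neighbouring copies share sequence, which bears on how far their values can be told apart. Of all stretches of 100 bases in the main transcript, 69.5% of Tuba1b, 65.1% of Tuba1a and 53.4% of Tuba1c occur in a transcript of another gene as well. For Tubb2a this share was 36.9%, for Tubb2b 27.8% and for Tubb4b 29.2%, mostly with the pseudogene Tubb4b-ps1 (27.4%). Tuba4a, Tuba8, Tubb5 and Tubb6 shared 0 such stretches. The split of fragments among Tuba1a, Tuba1b and Tuba1c, and between Tubb2a and Tubb2b, thus rests on the deposited assignment.

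The first 4 codons are shown because they spell the amino terminus that the Ttc5 pathway reads, with the start codon in capitals. They were read from the main transcript of 9 members.
Tuba1a: ATGcgtgagtgc
Tuba1b: ATGcgtgagtgc
Tuba1c: ATGcgtgagtgc
Tuba4a: ATGcgcgagtgc
Tuba8: ATGagggaatgc
Tubb2a: ATGcgcgagatc
Tubb2b: ATGcgagagatc
Tubb4b: ATGagggagatc
Tubb5: ATGagggaaatc
The 5 alpha genes used 3 spellings, with Tuba1a, Tuba1b and Tuba1c identical, and the 4 beta genes used 4. Within each family 9 of the 12 bases were the same in every gene, and 7 were the same in all 9 genes.

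The 250 bases before the annotated start were read from RefSeq (GRCm38.p6), which matched 8 of the 10 members. Those of Tubb2a (chr13:34078009-34078258, minus strand), Tubb4b (chr2:25224703-25224952, minus strand) and Tuba1c (chr15:99029641-99029890, plus strand) are shown because these genes had the highest mean levels in control liver. Capitals mark matches, on either strand, to the letters CCAAT, to GGGCGG of the GC box, to TATAAA, to TGACGTCA of the cyclic AMP response element, or to TGANTCA of the AP-1 site.
Tubb2a: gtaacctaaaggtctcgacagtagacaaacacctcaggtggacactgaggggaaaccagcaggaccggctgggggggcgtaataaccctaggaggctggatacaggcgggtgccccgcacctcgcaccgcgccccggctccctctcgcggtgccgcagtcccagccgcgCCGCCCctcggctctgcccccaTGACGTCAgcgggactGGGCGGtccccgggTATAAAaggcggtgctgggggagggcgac
Tubb4b: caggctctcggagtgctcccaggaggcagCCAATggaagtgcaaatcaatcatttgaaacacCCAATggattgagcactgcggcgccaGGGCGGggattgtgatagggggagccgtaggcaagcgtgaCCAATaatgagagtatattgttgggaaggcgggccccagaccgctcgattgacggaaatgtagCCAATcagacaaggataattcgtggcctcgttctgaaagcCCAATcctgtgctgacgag
Tuba1c: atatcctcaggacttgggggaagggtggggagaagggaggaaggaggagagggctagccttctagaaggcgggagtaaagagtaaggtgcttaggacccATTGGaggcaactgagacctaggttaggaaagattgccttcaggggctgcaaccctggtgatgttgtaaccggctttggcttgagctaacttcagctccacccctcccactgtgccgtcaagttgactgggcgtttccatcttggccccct
CCAAT was found in 4 of the 8 members, Tuba1a, Tuba1c, Tubb4b and Tubb5, against 33.9% of 32851 promoters of the same length. Tubb4b held it 5 times. GGGCGG was found in 5 of the 8 (32.7% of all promoters). TATAAA and TGACGTCA were each found in Tubb2a alone among the members (12.4% and 1.55% of all promoters), and TGANTCA in 0 of the 8 (6.75% of all promoters). Matches describe letters and say nothing about a bound factor.

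The phloridzin 1 liver stood apart from the rest, and the tubulin results that include it are given with and without it or liver by liver. On log2(FPKM + 1), its mean absolute difference from the other livers of its group was 0.433, against 0.269 to 0.344 for the remaining 11 livers. Its summed FPKM of the 10 tubulins was 408, or 3.16 times the mean of 129 in phloridzin 2 and 3. Tubb6 was 6.55 times and Tubb4b 5.19 times as high as in those livers, while Tuba4a (0.636 times), Tuba8 (0.364 times) and Tubb2b (0.119 times) were lower. A list of 20 proliferation genes summed to 349 FPKM in phloridzin 1 and to between 46.1 and 104 FPKM in every other CCl4 liver. The part of that difference in the tubulin values was not tested. Since all groups share a single estimate of the spread, the wide phloridzin values also enter the tests of the other comparisons.

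The summed tubulin level was 94.8, 97.1 and 114 FPKM in the control livers, 245, 308 and 345 in the model livers, 144, 153 and 141 with silibinin, and 408, 140 and 119 with phloridzin. Every CCl4 liver lay above every control liver. The group means were 102 ± 10.5 FPKM in control, 146 ± 6.31 with silibinin, 222 ± 161 with phloridzin and 299 ± 50.2 in the model group (SD, n = 3 each). In that order the control and silibinin ranges did not overlap, whereas the phloridzin range took in those of silibinin and model. Without phloridzin 1 the mean was 129 ± 15.0 FPKM (SD, n = 2), below every silibinin liver. Whole-liver RNA pools all cells, so fewer cells of a type and less RNA per cell cannot be told apart.

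In control liver Tubb4b, the ubiquitous beta isotype that also builds cilia, had the highest mean at 30.8 ± 3.57 FPKM (SD, n = 3). Tuba1c followed at 18.7 ± 3.77, then Tubb2a at 15.5 ± 6.02, Tubb5 at 14.8 ± 0.734 and Tuba1b at 12.2 ± 1.13 FPKM (SD, n = 3 each). Tubb2a overlapped Tuba1c, Tubb5 and Tuba1b, while every Tuba1c value was above every Tubb5 value. Tuba4a was at 5.77 ± 3.28, Tuba1a at 2.44 ± 0.0683, Tubb6 at 0.963 ± 0.176 and Tuba8 at 0.809 ± 0.00869 FPKM (SD, n = 3 each). Tubb2b, an isotype known from neurons, was at the floor in control liver, with 0, 0.0254 and 0.0795 FPKM. The fragments behind these values ran from 0 for Tubb2b in control 1 to 25421 for Tubb4b in phloridzin 1, and no other member had fewer than 130 in a liver.

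**Figure D1:**
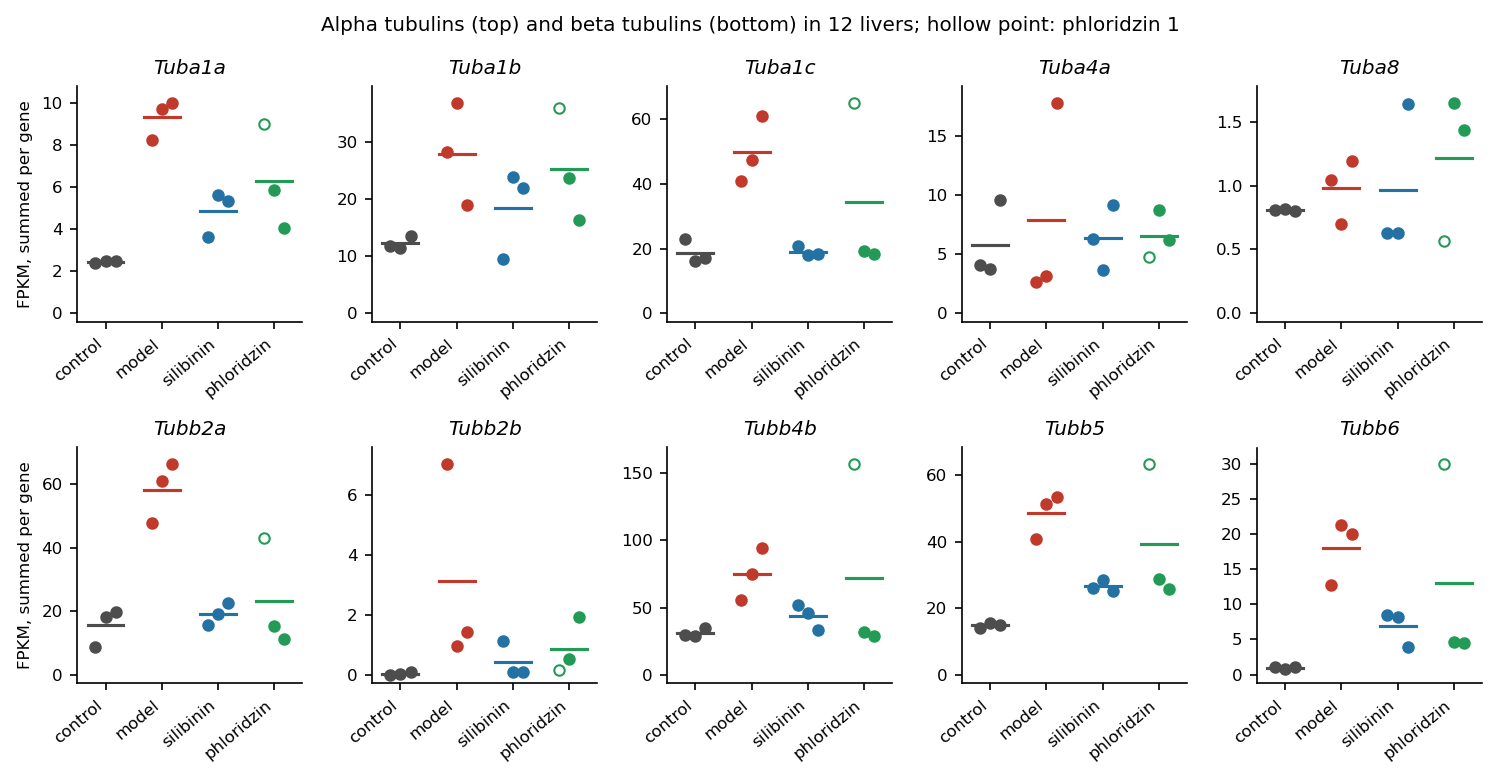
FPKM of each tubulin gene (vertical axis, summed over its transcripts) in the 3 livers of each group, with the alpha genes above and the beta genes below; points are livers, lines are group means, and the hollow point is phloridzin 1. In 8 of the 10 genes, all except Tuba4a and Tuba8, every model liver lies above every control liver.

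Model against control livers sets tubulin RNA after 8 weeks of CCl4 beside that of WT mice, and most of the family was higher in the model livers. Any injection of the control mice is not given, so CCl4 and its olive oil cannot be told apart here. Of the 10 members, 7 were DE upward, meaning a Benjamini-Hochberg adjusted p under 0.05 in limma and a log2 fold change of log2(FPKM + 1) above 1, a scale that understates the change of genes with low values. Of all 13158 genes tested, 9.42% were DE upward. Tubb2b, which passed the filter on mean level through the model livers alone, is among the 7 members. The median log2 fold change was 1.48 over the members and 0.34 over all genes. In 8 members every model liver was above every control liver, which was so for 45.1% of all genes.

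Tubb6, a beta isotype that is low in most adult tissues and known to appear in regenerating muscle, had the largest log2 fold change of the family on this scale. With a pseudocount of 0.1 in place of 1, Tubb2b (4.10) and Tubb6 (4.07) were about equal. It was at 1.09, 0.761 and 1.04 FPKM in the control livers and at 12.8, 21.3 and 20 FPKM in the model livers. The lowest model liver was far above the highest control liver. The log2 fold change was 3.25 (standard error, SE, 0.57, 95% interval 1.99 to 4.51, adjusted p = 0.0019 by limma with Benjamini-Hochberg). Tubb2a, a beta isotype abundant in neurons, was at 8.59, 18.1 and 19.7 FPKM in control and at 47.7, 61.0 and 66.3 FPKM in model livers. These ranges did not touch, and Tubb2a rose by 1.91 (SE 0.43, adjusted p = 0.0074 by limma with Benjamini-Hochberg). Tubb5, the widely expressed beta isotype, was at 14.0, 15.5 and 14.9 FPKM in control and at 40.8, 51.3 and 53.5 FPKM in model livers. The control livers were almost equal and the model livers all higher, with a log2 fold change of 1.64 (SE 0.27, adjusted p = 0.0015 by limma with Benjamini-Hochberg). Tubb2b was at 7.01, 0.939 and 1.42 FPKM in the model livers, with the first of them far above the rest. It rose by 1.70 from its floor in control liver (SE 0.51, adjusted p = 0.026 by limma with Benjamini-Hochberg). Outside the model group its mean was below 0.5 FPKM (group means 0.035 in control, 0.43 with silibinin and 0.85 with phloridzin). The model livers alone thus took Tubb2b past the filter, so its call is not independent of that choice. Without the filter its adjusted p was 0.048 (limma, Benjamini-Hochberg). Without model 1 its log2 fold change was 1.07 and the call was lost (adjusted p = 0.069 by limma with Benjamini-Hochberg), as it was with any single control liver left out.

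Among the alpha genes, Tuba1a, best known from developing neurons, was at 2.36, 2.46 and 2.50 FPKM in control and at 8.23, 9.69 and 10 FPKM in model livers. The spread within either group was small beside the difference, and Tuba1a rose by 1.58 (SE 0.23, adjusted p = 0.00071 by limma with Benjamini-Hochberg). Tuba1c, an alpha gene of most tissues, was at 23.0, 16 and 17.0 FPKM in control and at 41.0, 47.5 and 61.2 FPKM in model livers. All model livers were higher, with a log2 fold change of 1.37 (SE 0.40, adjusted p = 0.022 by limma with Benjamini-Hochberg). Tuba1b, the other ubiquitous alpha gene, was at 11.8, 11.3 and 13.5 FPKM in control and at 28.2, 36.8 and 18.9 FPKM in model livers. Its groups did not overlap but model 3 came close to the controls, and the log2 fold change was 1.09 (SE 0.37, adjusted p = 0.041 by limma with Benjamini-Hochberg).

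Tubb4b, Tuba4a and Tuba8 were not DE. Tubb4b was at 29.1, 28.4 and 34.9 FPKM in control and at 55.9, 75.2 and 94.2 FPKM in model livers. Its groups did not overlap, yet the log2 fold change of 1.23 had a 95% interval of 0.08 to 2.39 (adjusted p = 0.091 by limma with Benjamini-Hochberg). Tuba4a, whose protein is made without the terminal tyrosine that other alpha-tubulins carry, was at 4.06, 3.71 and 9.55 FPKM in control and at 2.63, 3.12 and 17.8 FPKM in model livers. Its most abundant transcript was at 0 in model 1 and at 14.4 FPKM in model 3. Tuba8, an isotype of testis and muscle, stayed between 0.562 and 1.65 FPKM in all 12 livers.

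Without phloridzin 1, 8 of the 10 members were DE upward in the model livers (10% of 13095 genes), with Tubb4b added (adjusted p = 0.002 by limma with Benjamini-Hochberg). After median-ratio scaling of the livers, under which all DE genes went from 1240 up and 142 down to 490 up and 480 down, 5 members were DE upward (3.75% of 13079 genes): Tuba1a, Tubb2a, Tubb2b, Tubb5 and Tubb6. The members' median was then 1.05 beside -0.01 for all genes, and Tuba4a and Tuba8 changed sign, to -0.34 and -0.10. Leaving out control 2 or control 3 lowered the count from 7 to 4 members, and Tuba1a, Tubb2a, Tubb5 and Tubb6 were DE with any control or model liver left out. The call of Tuba1b was lost with any single one of these livers left out except model 3, and that of Tuba1c without control 2, control 3, model 2 or model 3.

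**Figure D2:**
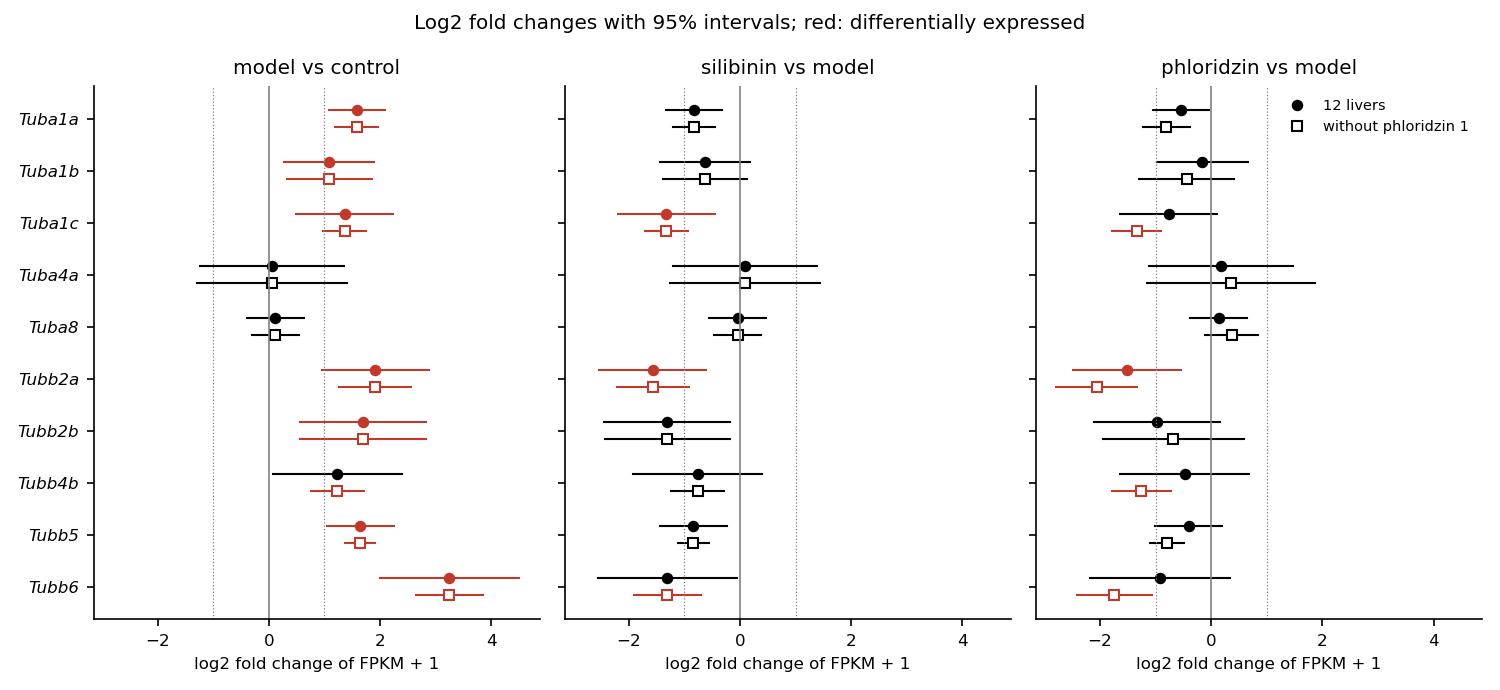
Log2 fold change of FPKM + 1 (horizontal axis) of each tubulin gene in 3 comparisons, as points with 95% intervals; filled points use 12 livers, hollow squares leave out phloridzin 1, red marks genes that were DE, and dotted lines stand at -1 and 1. With 12 livers 7 members were DE in the model livers, 2 with silibinin and 1 with phloridzin.

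Silibinin against model livers asks what the drug did while CCl4 went on, and 9 of the 10 members had lower means on the log scale with the drug. DE downward were 2 members, Tuba1c and Tubb2a, against 3.25% of all 13158 genes. The median log2 fold change was -0.83 over the members and -0.15 over all genes. In 6 members every silibinin liver was below every model liver, which was so for 27.8% of all genes.

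Tubb2a was at 15.5, 19.1 and 22.5 FPKM with silibinin, against 47.7 FPKM in the lowest model liver. It fell by 1.57 on the log2 scale (SE 0.43, 95% interval -2.53 to -0.61, adjusted p = 0.037 by limma with Benjamini-Hochberg). Tuba1c was at 20.8, 18 and 18.3 FPKM with silibinin, inside the range of the control livers. It fell by 1.33 (SE 0.40, 95% interval -2.20 to -0.45, adjusted p = 0.048 by limma with Benjamini-Hochberg). Tuba1a was at 3.62, 5.60 and 5.34 FPKM with silibinin, between the control and the model livers without touching either. Its log2 fold change of -0.83 passed the test but not the cutoff of 1 (adjusted p = 0.035 by limma with Benjamini-Hochberg). Tubb5 was at 26.1, 28.4 and 25.3 FPKM and Tubb6 at 8.48, 8.23 and 3.89 FPKM, and both also lay between the control and model ranges. Their log2 fold changes were -0.84 and -1.30 (adjusted p = 0.067 and 0.16 by limma with Benjamini-Hochberg). Tubb4b was at 52.0, 45.8 and 33.2 FPKM, below every model liver, with a log2 fold change of -0.76 and a 95% interval of -1.92 to 0.40. Tuba1b was at 9.43, 23.8 and 21.9 FPKM with silibinin, so that its range crossed those of control and model. Tubb2b was at 1.13, 0.0909 and 0.0708 FPKM, and silibinin 1 overlapped the model livers.

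Without phloridzin 1, 3 members were DE downward with silibinin (3.43% of 13095 genes), with Tubb6 added at a log2 fold change of -1.30 (adjusted p = 0.01 by limma with Benjamini-Hochberg), and 6 members passed the test without the fold change cutoff. With median-ratio scaling 0 members were DE (limma, 5 at an unadjusted p under 0.05; 188 genes up and 237 down in all, the latter 1.81%, against 98 and 428 unscaled), but 3 were when phloridzin 1 was also left out (1.89% of 13038 genes). With any single model or silibinin liver left out the count was 0.

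Phloridzin against model livers gave 1 DE member of 10, Tubb2a, against 2.92% of all 13158 genes DE downward. The members' median log2 fold change was -0.51, and that of all genes -0.11. Without phloridzin 1 these medians were -0.80 and -0.18. Tubb2a was at 43.0, 15.4 and 11.1 FPKM with phloridzin, and even phloridzin 1 was below the lowest model liver. It fell by 1.51 (SE 0.43, 95% interval -2.48 to -0.55, adjusted p = 0.045 by limma with Benjamini-Hochberg). It was the only member whose groups did not overlap downward, which 22.4% of all genes showed.

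Without phloridzin 1 the comparison rested on phloridzin 2 and 3, and 4 of the 10 members were DE downward, against 4.01% of 13095 genes. In 6 members both of these livers were below every model liver, which was so for 36.4% of all genes. Tubb2a fell by 2.06 (95% interval -2.78 to -1.34, adjusted p = 0.0034 by limma with Benjamini-Hochberg). Tubb6 was at 29.9 FPKM in phloridzin 1 and at 4.58 and 4.56 in phloridzin 2 and 3, and fell by 1.74 without the former (adjusted p = 0.0051 by limma with Benjamini-Hochberg). Tubb4b was at 157, 31.5 and 28.8 FPKM, so phloridzin 1 was the highest of the 12 livers and phloridzin 2 and 3 were at the control level. It fell by 1.26 without phloridzin 1 (adjusted p = 0.008 by limma with Benjamini-Hochberg), against a log2 fold change of -0.48 with it. Tuba1c was at 65.1, 19.4 and 18.3 FPKM and showed the same split, with a fall by 1.34 without phloridzin 1 (adjusted p = 0.0023 by limma with Benjamini-Hochberg).

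Tubb5 was at 63.2, 28.7 and 25.9 FPKM with phloridzin, and Tuba1a at 9.02, 5.86 and 4.04 FPKM. In both genes phloridzin 2 and 3 were below the model livers and above the control livers. Without phloridzin 1 their log2 fold changes were -0.80 and -0.81, past the test and short of the cutoff (adjusted p = 0.0049 and 0.02 by limma with Benjamini-Hochberg). Tuba1b was at 35.9, 23.6 and 16.4 FPKM and overlapped the model livers with or without phloridzin 1. Tubb2b was at 0.144, 0.508 and 1.90 FPKM. Unlike Tubb6 and Tubb4b it was lowest in phloridzin 1. Tuba8 was at 0.562, 1.65 and 1.44 FPKM, so that phloridzin 2 and 3 were above every model liver. Counted in either direction, 1 member had no overlap with the model livers (30.6% of all genes), and 7 had none without phloridzin 1 (48.1%). With median-ratio scaling 0 members were DE (limma, 1 at an unadjusted p under 0.05; 140 genes up and 237 down in all, the latter 1.81%, against 79 and 384 unscaled), and 4 when phloridzin 1 was also left out (2.15% of 13038 genes). The count was 0 with any model liver, phloridzin 2 or phloridzin 3 left out.

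The drugs were compared with each other directly, because both comparisons above share the model livers. Of the 10 members 0 were DE between phloridzin and silibinin (limma, 0 at an unadjusted p under 0.05), and 0.0228% of all genes were DE in either direction. All 10 log2 fold changes were positive with phloridzin 1 and 6 were without it. Without phloridzin 1 the count was again 0 members (limma, 0 at an unadjusted p under 0.05; 0.0305% of 13095 genes). The differences that remained possible were wide. For Tubb4b the log2 difference was 0.28 with a 95% interval of -0.87 to 1.44, and -0.50 with an interval of -1.03 to 0.04 without phloridzin 1. For Tubb6 these values were 0.39 (-0.87 to 1.64) and -0.44 (-1.11 to 0.23). For Tubb5 they were 0.43 (-0.17 to 1.03) and 0.04 (-0.27 to 0.34).

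Treated livers were also set against control livers, to see how much of the CCl4 level was still present under the drugs. With silibinin 0 members were DE upward (limma, 3 at an unadjusted p under 0.05), against 1.74% of all genes. Tuba1a, Tubb5 and Tubb6 had no overlap between silibinin and control livers, with log2 fold changes of 0.75, 0.81 and 1.95. These 3 of 10 members compare with 26.4% of all genes whose silibinin livers were all higher. For Tubb6 the adjusted p was 0.078 with 12 livers and 0.003 without phloridzin 1, where it was the 1 member DE upward (limma, Benjamini-Hochberg, 2.72% of 13095 genes). Tuba1c had a log2 fold change of 0.04 between silibinin and control, with a 95% interval of -0.83 to 0.92, and one of -0.20 with median-ratio scaling.

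With phloridzin 3 members were DE upward against control livers, where 2.74% of all genes were. Tubb6 rose by 2.33, Tubb5 by 1.24 and Tuba1a by 1.03 (adjusted p = 0.035, 0.024 and 0.025 by limma with Benjamini-Hochberg). Without phloridzin 1 only Tubb6 was DE among the members (log2 fold change 1.51, adjusted p = 0.027 by limma with Benjamini-Hochberg), where 1.60% of 13095 genes were DE upward. Tubb5 then had a log2 fold change of 0.84, past the test but short of the cutoff (adjusted p = 0.015 by limma with Benjamini-Hochberg), Tubb2a one of -0.15 and Tubb4b one of -0.03. Groups did not overlap in 5 members (29.8% of all genes, in either direction), or in 6 without phloridzin 1 (38.6%). With median-ratio scaling Tubb6 alone was DE (1.37% of 13079 genes upward; 179 up and 64 down, against 360 and 38 unscaled), and with any control liver left out the count was 0.

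The makeup of the tubulin pool was described by each gene's share of the summed FPKM. Tubb6 made up 0.947 ± 0.184% of the sum in control livers, 5.98 ± 0.86% in model livers, 4.67 ± 1.68% with silibinin and 4.81 ± 2.19% with phloridzin (SD, n = 3 each). Every CCl4 liver was above every control liver in this share, and the phloridzin livers were at 7.32, 3.27 and 3.84% in turn. Tubb2a was at 19.5 ± 0.297% in model livers and lower in the drug groups, at 13 ± 2.62% with silibinin and 10.3 ± 0.831% with phloridzin (SD, n = 3 each). In single phloridzin livers the Tubb2a share was 10.5, 11 and 9.38%, so that every liver given a drug was below every model liver. Tubb5 was at 14.6 ± 1.45% in control livers and at 16.3 ± 0.646% in model livers. With silibinin its share was 18.2 ± 0.34% and with phloridzin 19.3 ± 3.34% (SD, n = 3 each), so both drug means were further from control than the model mean. Every silibinin liver was above the model livers in the Tubb5 share, whereas the phloridzin livers were split, with phloridzin 1 at 15.5%, below them, and the other livers at 20.5 and 21.8%, above them. These shares were not tested. The ratio of summed alpha to summed beta FPKM was 0.796, 0.546 and 0.613 in control livers, 0.494, 0.467 and 0.463 in model livers, 0.395, 0.508 and 0.664 with silibinin, and 0.394, 0.734 and 0.641 with phloridzin. Beta RNA exceeded alpha RNA in every liver, and the control range lay above the model range. The phloridzin range crossed that of the model livers through phloridzin 1 alone, since phloridzin 2 and 3 were above every model liver.

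**Figure D3:**
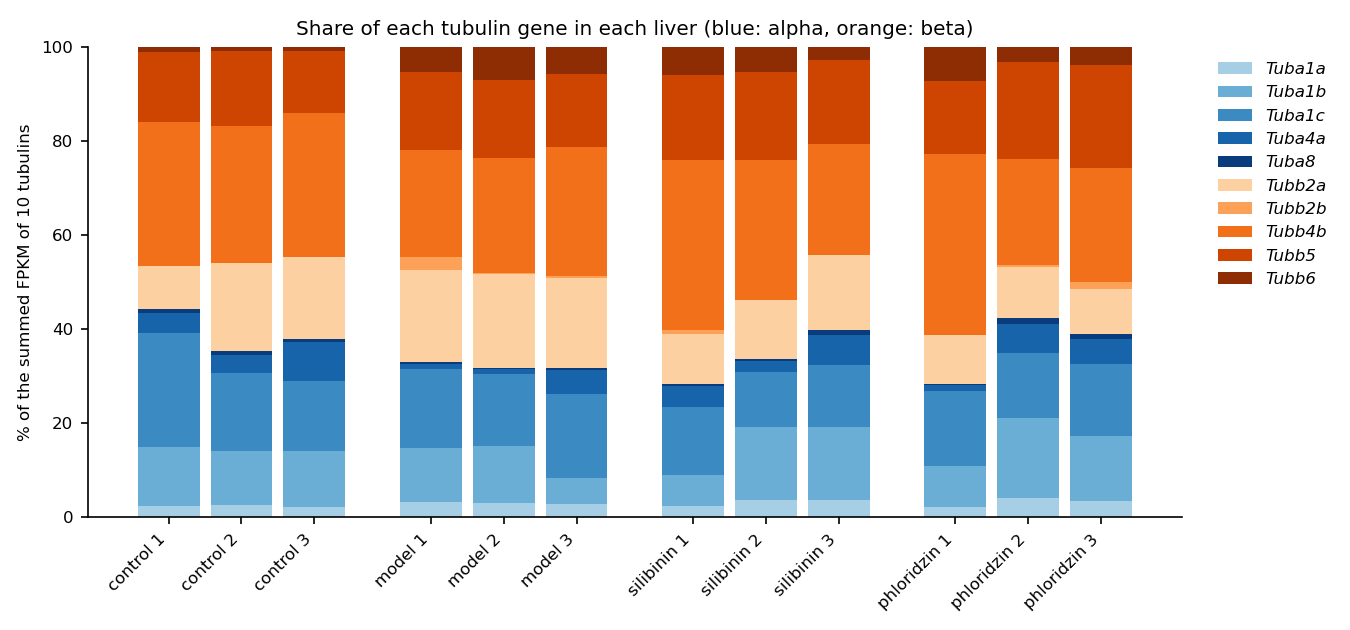
Share of each tubulin gene in the summed FPKM of the 10 genes (vertical axis, %) in each of the 12 livers; alpha genes are blue and beta genes orange. The top segment, Tubb6, has a mean of 0.947% in control livers and 5.98% in model livers.

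The genes nearest in pattern to the summed tubulins were sought among 11600 genes with a mean of at least 1 FPKM, by the mean absolute difference of centred log2 values over the 12 livers. They were H2afx (0.176), Ywhah (0.186), Mtmr11 (0.193), Gm7329 (0.194) and Tbc1d31 (0.194). H2afx, which encodes the histone variant H2AX, was at 27.0 FPKM in phloridzin 1 and at 13 to 14.1 FPKM in the model livers, so it shared the height of the tubulins in that liver. Ywhah, a 14-3-3 protein gene, was at 28.6, 40.3 and 36.1 FPKM in model livers, 38.7 FPKM in phloridzin 1 and 18.4 to 24.3 FPKM in the other treated livers.

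In the model livers 0 to 2 genes of each of 7 other tubulin and microtubule lists were DE upward, in every list a share below the 9.42% of all genes. Of 10 further tubulin genes 8 were in the table and 2, with gamma-tubulin Tubg1 the more abundant, were tested; 0 were DE in the model livers, with a median log2 fold change of 0.34. Tubal3 was at 0 in every liver. Of 15 tested genes of the chaperonin CCT and prefoldin, which fold new tubulin, all 15 were higher in the model livers with a median of 0.53, but 1 was DE. This was Tcp1, a CCT subunit, which rose by 1.27 and fell by 1.36 with silibinin (adjusted p = 0.0064 and 0.01 by limma with Benjamini-Hochberg). Of 8 tubulin cofactors and autoregulation genes, Ttc5 among them, 0 were DE in the model livers (median 0.13, against 0.34 for all genes). Likewise 0 of 8 genes of the gamma-tubulin ring complex, which starts microtubules, were DE there (median 0.36). Of 14 tested tubulin modifying enzymes 0 were DE in the model livers (median 0.32) and 1, the glutamylase gene Ttll4, fell by 1.01 with silibinin (adjusted p = 0.027 by limma with Benjamini-Hochberg). Single genes of these 7 lists that fell with silibinin stand beside 3.25% of all genes DE downward there.

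Among 22 tested genes of microtubule-associated, stathmin and severing proteins, 19 were higher in the model livers (median 0.53, against 0.34 for all genes) and 2 were DE, near the share of all genes. When phloridzin 1 was left out, 3 of them were DE. Map4, a stabiliser of microtubules, rose by 1.00 and the spindle gene Tpx2 by 1.57 (adjusted p = 0.0035 and 0.045 by limma with Benjamini-Hochberg), and Map7d1 fell by 1.06 with silibinin (adjusted p = 0.035 by limma with Benjamini-Hochberg). Of 22 tested genes of microtubule motors 21 were higher in the model livers, with a median of 0.30 that was below the 0.34 of all genes, and 2 were DE, again near the share of all genes. Dynll1, a dynein light chain gene, rose by 1.32 and fell by 1.07 with silibinin, and Klc1, a kinesin light chain gene, rose by 1.01 (adjusted p = 0.0022, 0.014 and 0.045 by limma with Benjamini-Hochberg). With phloridzin 0 genes of these 7 lists were DE against the model livers. Without phloridzin 1, 1 chaperonin or prefoldin gene and 1 motor gene were DE downward, against 4.01% of 13095 genes.

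Proliferation genes were higher in the model livers, as were the tubulins. All 20 were higher in the model livers (median 1.18, against 0.34 for all genes). DE upward were 6 of them, against 9.42% of all genes, such as Cdc20 at a log2 fold change of 3.21, Ccnb1 at 2.26, Rrm2 at 2.13 and Ube2c at 2.11. Their summed FPKM was 21.3, 20.3 and 20.2 in control livers, 81.5, 78.2 and 90.5 in model livers, 104, 101 and 60 with silibinin, and 349, 58.3 and 46.1 with phloridzin. Silibinin 1 and 2 were above every model liver in proliferation RNA and below every model liver in tubulin RNA, while silibinin 3 was below the model livers in both. In silibinin against model 0 of the 20 were DE and the median was 0.09, beside -0.83 for the tubulins. In phloridzin against model 0 were DE with phloridzin 1 (median 0.35) and 1 downward without it (median -0.36), and in the model livers 11 were DE upward without it. Pcna, the most abundant of the list, was at 23.0, 23.7 and 23.4 FPKM in model livers and lower with silibinin, at 17.2, 18.4 and 15.7 FPKM. The part of dividing cells in the tubulin values was not tested.

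Of 10 markers of stellate cells and myofibroblasts all were higher in the model livers (median 1.36) and 7 were DE upward, against 9.42% of all genes, led by Col1a1 at a log2 fold change of 4.35 and Col3a1, the most abundant, at 3.75. Their summed FPKM was 18.7, 12.9 and 13.9 in control livers, 152, 123 and 154 in model livers, 148, 141 and 62.7 with silibinin, and 212, 77.7 and 59.1 with phloridzin. Silibinin 1 and 2 overlapped the model livers in these markers, whereas their summed tubulins did not. All 10 macrophage markers were higher in the model livers (median 1.15) and 5 were DE upward, among them Gpnmb at 4.73, Trem2 at 2.78 and Lyz2, the most abundant, at 2.16. Macrophage markers summed to 126, 227 and 178 FPKM in control livers, 367, 555 and 495 in model livers, 444, 550 and 380 with silibinin, and 679, 611 and 343 with phloridzin. With silibinin or phloridzin 0 genes of either list were DE against the model livers, with stellate medians of -0.36 and -0.39 and macrophage medians of -0.10 and 0.01. Without phloridzin 1 the phloridzin medians were -0.60 and -0.24, again with 0 genes DE. None of the genes on either list was at 0 in every liver. The part of these cell types in the tubulin values was not tested.

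**Figure D4:**
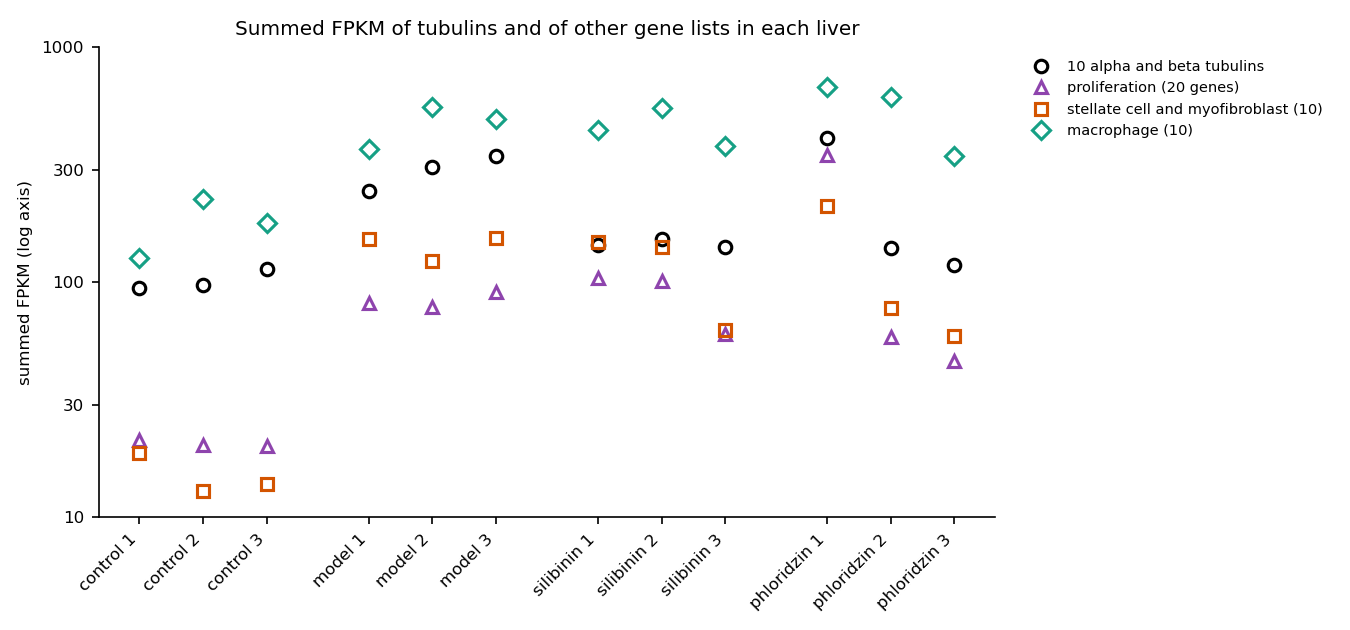
Summed FPKM (vertical axis, log scale) of the 10 tubulins and of the proliferation, stellate cell and macrophage lists in each of the 12 livers, by group. The tubulin sum is at 144 and 153 FPKM in silibinin 1 and 2, below the model livers, where the stellate cell sum is at 148 and 141, within the model range.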

How the data were processed

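Total RNA of 12 mouse livers, 3 per group, was sequenced from libraries made with a kit for Illumina. The authors deposited FPKM per transcript and liver, that is, fragment counts scaled by transcript length and library size. The submitters' processing notes name HISAT2 2.1.0, StringTie 1.3.3b, DESeq 1.28.0, FastQC 0.11.5, bcl2fastq and mm10 without giving their roles. Library sizes were read from the step between values of FPKM multiplied by length: of 3888 to 4699 low values per liver, in transcripts of at least 1500 bases, 98.8 to 99.3% were within 0.1 steps of a whole multiple. The table has 169430 rows, of which 82136 carry a gene symbol and were summed to 24296 genes; 87294 rows without a symbol were not used. Of 81968 Ensembl rows found in GENCODE M21, 98.1% were at its GRCm38 position.

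Genes with a mean of at least 0.5 FPKM were tested on log2(FPKM + 1) by limma, letting the variance follow the mean level, in a single fit of 12 livers and 4 groups from which 6 comparisons were drawn, two-sided, with Benjamini-Hochberg adjustment over 13158 genes. No count test was run, as the values are not counts. DE requires an adjusted p under 0.05 together with an absolute log2 fold change over 1. The labels give separate livers by number and state no pairing. Pearson's r between livers of a group was 0.918 to 0.954 across genes, and livers of a group shared at most 1 identical nonzero gene value.

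The genes named are the 10 members, up to 4 genes with the largest fold change among the DE genes of each list, the 5 nearest in pattern and the most abundant gene of each marker list. Lists covered other tubulins, chaperonin CCT and prefoldin, tubulin cofactors and autoregulation, modifying enzymes, the gamma-tubulin ring complex, microtubule-associated proteins, motors, other cytoskeleton, proliferation and markers of 9 cell types. Members and lists were chosen with earlier results of these data known. Alternatives were a pseudocount of 0.1, no filter, median-ratio scaling and a fit of the compared groups alone. Others were a replicate block, the highest row per gene, no fold change cutoff, and each liver of the compared groups left out. Phloridzin 1 was also left out of the fit for comparisons without phloridzin, and together with median-ratio scaling. These fits are not among the alternatives just listed. The count of members without overlap when phloridzin 1 is left out was added after the data were seen. Sequence features were read from GENCODE M21 transcripts and RefSeq promoters. Tables were made in Python 3.11.15 (numpy 2.4.6, pandas 2.3.3), figures with matplotlib 3.10.9, and tests in R 4.3.3 (limma 3.58.1, data.table, version 1.17.8).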

Additional observations from a re-analysis of the deposited data

How the results depend on the processing

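The directions of the DE members held under every alternative tried; their calls did so less often. Without a fold change cutoff all DE genes numbered 4594 in model against control, 1849 in silibinin and 1691 in phloridzin against model, 661 in silibinin and 1051 in phloridzin against control. With a pseudocount of 0.1 they numbered 2596, 702 in phloridzin against model, 828 in silibinin and 1103 in phloridzin against control; DE members were then 1 in silibinin against model, 0 in phloridzin against model and 1 in silibinin against control. Without the filter on low values 0 members were DE in silibinin and in phloridzin against model. With median-ratio scaling these counts were 0 and 0, phloridzin against control had 1 DE member and 243 DE genes, and signs turned for Tuba4a (-0.34) and Tuba8 (-0.10) in model against control, Tuba8 (0.073) in silibinin and Tuba1b (0.017) in phloridzin against model, Tuba1c (-0.20), Tuba4a (-0.07) and Tuba8 (-0.03) in silibinin against control and Tuba4a (-0.02) in phloridzin against control. With the highest row per gene 0 members were DE in silibinin against model, phloridzin against model and phloridzin against control, and all DE genes were 5 between the drugs, 117 in silibinin and 190 in phloridzin against control. With only the compared groups in the fit, 0 members were DE in phloridzin against model or control and 1 in silibinin against control, with 0 DE genes between the drugs and 127 in phloridzin against control. In that setting 8 members were DE in model against control (1446 genes in all), with Tubb4b added (adjusted p = 0.0075 by limma with Benjamini-Hochberg). Silibinin against model then had 3 DE members (535 genes in all), with Tubb6 added (adjusted p = 0.046 by limma with Benjamini-Hochberg). The cause was not tested.

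With the replicate block 0 members were DE in silibinin and in phloridzin against model, 6 in model against control and 3 in phloridzin against control. Deviations of same-numbered livers correlated at -0.091 to 0.101, and those of differently numbered livers at -0.165 to 0.146. With 3 livers a group these values cannot tell whether the numbers pair the livers, and the labels state no pairing.

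Leaving out each liver of the compared groups in turn gave 4 to 6 DE members in model against control, 0 to 0 in silibinin against model, 0 to 4 in phloridzin against model and 0 to 3 in phloridzin against control, and 1 to 5 DE genes between the drugs, 102 to 383 in silibinin and 210 to 634 in phloridzin against control. The log2 fold change of Tuba4a ranged from -0.71 to 0.48 in model against control, -0.34 to 0.85 in silibinin and -0.25 to 0.93 in phloridzin against model. That of Tuba8 ranged from -0.273 to 0.077 in silibinin and -0.012 to 0.369 in phloridzin against model, and that of Tuba1b from -0.44 to 0.11 in phloridzin against model. The count of members without overlap in phloridzin against model, in either direction, went from 1 to 7 without phloridzin 1 (30.6 and 48.1% of all genes), and that in phloridzin against control from 5 to 6 (29.8 and 38.6%). With 3 livers a group, small differences of low genes such as Tuba8 and Tubb2b are not resolved, and the part of sequencing depth in this was not tested.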

Other observations

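All 16 tested genes of the other cytoskeleton list were higher in the model livers, with a median log2 fold change of 1.18 beside 0.34 for all genes, and 8 were DE upward (9.42% of all genes). Against the model livers 5 were DE downward with silibinin (3.25% of all genes, list median -0.61) and 4 with phloridzin (2.92%, median -0.33), or 5 without phloridzin 1 (4.01%, median -0.57). Actg1, a cytoplasmic actin gene, was at 50.2, 37.7 and 42.1 FPKM in control livers, 131, 189 and 169 in model livers, 59.5, 60.6 and 56.5 with silibinin, and 91.9, 63.3 and 53.2 with phloridzin. The model livers stood above all others, and phloridzin 1 was higher than the rest of its group but below them. Krt8, the hepatocyte keratin, had the same order, at 123, 177 and 152 FPKM in model livers and 40.1 to 76.5 FPKM with the drugs. Actg1 fell by 1.44 with silibinin and by 1.24 with phloridzin, and Krt8 by 1.60 and 1.37 (adjusted p = 0.0016, 0.0039, 0.0019 and 0.0048 by limma with Benjamini-Hochberg). Without phloridzin 1 the falls with phloridzin were 1.46 for Actg1 and 1.58 for Krt8. Tpm4, a tropomyosin gene, rose by 1.90 in the model livers and fell by 1.14 with silibinin, and Tagln2 rose by 2.00 (adjusted p = 0.00027, 0.0082 and 0.00046 by limma with Benjamini-Hochberg). Actb was the most abundant gene of the list. Unlike Tubb4b, Tubb5, Tubb6 and Tuba1c, neither Actg1 nor Krt8 was higher in phloridzin 1 than in the model livers.

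Markers of other liver cells were read in the same way. Of all 13158 genes, 9.42% were DE upward in the model livers and 142 genes were DE downward. Of 8 hepatocyte markers 1 was DE in the model livers, Cyp2e1, which fell by 2.35, and the median of the list was 0.03. Of 3 tested cholangiocyte markers Spp1 was DE, with a rise by 1.94, and of 3 platelet and megakaryocyte markers Pf4, with a rise by 1.5. Of 7 endothelial (most abundant Clec4g), 5 lymphocyte (Cd79b), 3 neutrophil (S100a8) and 4 erythroid markers (Hbb-bs), 0 were DE in the model livers, with medians of 0.49, 0.38, 1.29 and -0.47. With silibinin 0 of them were DE against the model livers. All 3 neutrophil markers (median -1.25), all 7 endothelial markers (-0.37) and 3 of 4 erythroid markers (-0.82) were lower there. Other lists went the other way, with 6 of 8 hepatocyte markers (median 0.15) and 3 of 5 lymphocyte markers (0.02) higher. Of the cholangiocyte and the platelet and megakaryocyte markers 2 of 3 each were lower (medians -0.06 and -0.30). The median was -0.83 for the tubulins and -0.15 for all genes. The neutrophil list summed to 19.0, 7.13 and 20.6 FPKM in control livers, 25.2, 65.0 and 40.4 in model livers, 17.6, 24.0 and 9.91 with silibinin, and 19.4, 76.2 and 37.0 with phloridzin. The endothelial list summed to 61.4, 58.7 and 73.2 FPKM in control livers, 68.7, 87.7 and 71.7 in model livers, 48.6, 84.8 and 33.6 with silibinin, and 86.4, 94.8 and 65.6 with phloridzin. The erythroid list summed to 959, 1100.2 and 897 FPKM in control livers, 756, 655 and 474 in model livers, 436, 517 and 249 with silibinin, and 275, 600.5 and 861 with phloridzin. None of their genes was at 0 in every liver. Their part in the tubulin values was not tested.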
